A study of Mus musculus with 12 samples.

Results

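A set of 10 genes that mark microglia in mouse brain, of the 55901 genes in the table, was followed across an in vitro injury of cortical neurons. They were taken by gene symbol and are the subunits of complement C1q (C1qa, C1qb and C1qc), the receptors Csf1r, Cx3cr1, Trem2 and P2ry12, the adaptor Tyrobp, and the intracellular proteins Aif1 and Laptm5. The cells were primary cortical neurons of C57BL/6J mice taken within 24 h of birth, of unmodified genotype as far as the labels say. All cultures received arabinosylcytosine, a DNA synthesis inhibitor that limits glial growth, on day 1 and were used between day 8 and day 10. Control cultures were left uninjured, Trauma cultures were scratched with a needle and collected after 24 h, and Tra_TGF cultures were scratched and incubated with TGF-β1 at 10 ng/mL for 24 h. Each group had 4 RNA-seq libraries. The sources used here do not say whether the 4 came from separate litters or cultures, so p-values measure the spread between these libraries, which may be technical.

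Microglia are the resident phagocytes of the brain. They survive on signals through Csf1r, respond to neuron-derived fractalkine through Cx3cr1 and to nucleotides through P2ry12, and signal through the Trem2 and Tyrobp receptor complex when they take up lipids and debris. In brain they are the main source of C1q, the recognition molecule of the classical complement pathway, which is assembled from A, B and C chains and can tag synapses and debris for removal.

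The 3 C1q genes lie side by side on the minus strand of chromosome 4 (GRCm38), from 136880129 to 136898803, a span of 18675 bp that holds C1qb, C1qc and C1qa in that order. The 250 bases before the RefSeq start site were available for 7 of the 10 genes (RefSeq, GRCm38.p6). GGAAGT, a core bound by PU.1, the transcription factor that defines the myeloid lineage, was searched on both strands after expression values had been seen. It stood in 4 of the 7 windows (C1qb, C1qc, Laptm5 and P2ry12) and in 19.7% of 32851 mouse windows of the same length. The windows of C1qb and P2ry12 are shown because C1qb had the highest mean in the Trauma group and P2ry12 was close to the limit of detection, although both carry the letters at a similar place, 53 and 51 bases before the start. The match is in capitals, as GGAAGT or its reverse complement.
C1qb, chr4:136886201-136886450, minus strand: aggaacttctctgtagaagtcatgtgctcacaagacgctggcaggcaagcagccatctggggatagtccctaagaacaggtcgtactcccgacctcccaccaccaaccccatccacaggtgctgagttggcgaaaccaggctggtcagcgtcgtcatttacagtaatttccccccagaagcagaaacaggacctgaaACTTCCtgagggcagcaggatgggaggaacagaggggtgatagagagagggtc
P2ry12, chr3:59262986-59263235, minus strand: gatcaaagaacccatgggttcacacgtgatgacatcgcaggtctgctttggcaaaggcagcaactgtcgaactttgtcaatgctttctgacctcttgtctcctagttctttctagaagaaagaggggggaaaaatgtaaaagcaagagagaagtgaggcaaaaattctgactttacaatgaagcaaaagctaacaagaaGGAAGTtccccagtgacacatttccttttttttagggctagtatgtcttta
The AP-1 letters TGANTCA were found in 1 of the 7 windows (Trem2) and in 6.75% of all windows, and the Smad palindrome GTCTAGAC in 0 of the 7 and 0.167% of all. These matches describe letters and were not tested as binding sites.

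The libraries held 15052486 to 17381671 reads assigned to genes. Values are FPKM, fragments scaled to gene length and depth, which can be compared between genes. In Control 10 neuronal markers summed to between 1675 and 1729 FPKM, with Tubb3 alone at 960 ± 31.4 FPKM (SD, n = 4). The sums were 218 to 247 FPKM for 10 astrocyte markers and 29.3 to 34.4 FPKM for the 10 microglial genes. Such sums do not give the share of each cell type. Control replicate 1 stood apart, with the fewest genes detected (22124, against 23362 to 24508 in the other libraries). Mitochondrial reads made up 2.97% of its gene reads, against 2.12% to 2.36% in the other Control libraries, 2.17% to 2.30% in Trauma and 2.69% to 3.23% in Tra_TGF. Values without this library stand beside the comparisons with Control for the 7 of the 10 genes that were tested with limma. The exact tests of the remaining 3, which had few reads, used all Control libraries. Genes outside the 10 that are named below as changed against Control each kept their call without Control replicate 1, with limma adjusted p of at most 0.0492.

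The level of the 10 genes together was higher in both scratched groups than in Control. On the RPM scale, as a share of the reads assigned to genes, they took 47.0 to 54.5 RPM in the 4 Control libraries (49.9 ± 3.24, mean ± SD, n = 4), 67.8 to 79.6 in Trauma (72.9 ± 5.22, n = 4) and 58.2 to 67.1 in Tra_TGF (61.9 ± 4.04, n = 4). No library of any group overlapped with a library of another group in this sum, although Wilson 95% intervals of neighbouring libraries overlapped, both between Trauma and Tra_TGF and between Tra_TGF and Control, and these intervals cover counting error only. Trauma was 1.46 times Control, Tra_TGF was 0.849 times Trauma and 1.24 times Control. Without Control replicate 1 the first ratio was 1.45 and the last 1.23. The sum is given without a test because the genes were chosen as a set. C1q alone supplied 47.4% to 60.0% of these reads in the 12 libraries. RNA of a whole culture cannot tell more cells of a type from more RNA per cell, and fewer cells from less RNA.

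**Figure D1:**
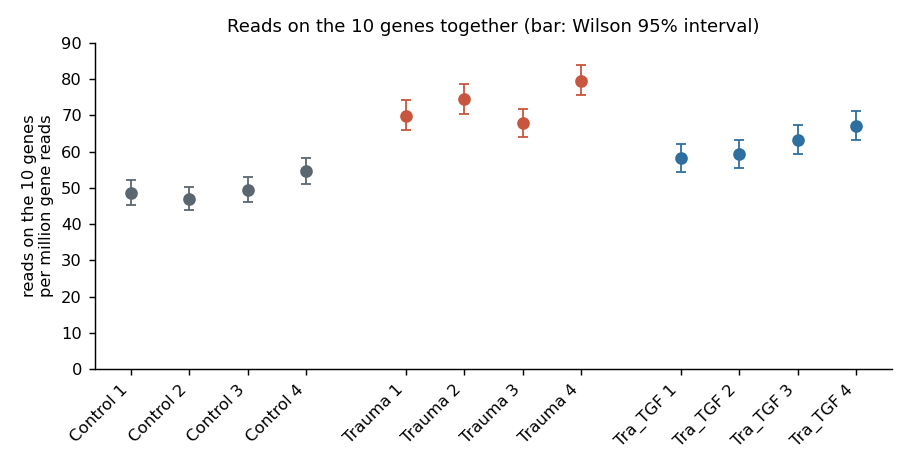
Reads on the 10 genes as a share of gene reads, in RPM (vertical axis, from 0), in each of the 12 libraries (horizontal axis), with Wilson 95% intervals for counting error. The 4 Trauma libraries lie between 67.8 and 79.6, the 4 Tra_TGF libraries between 58.2 and 67.1 and the 4 Control libraries between 47.0 and 54.5.

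In every group C1qa and C1qb had the highest mean FPKM, and their ranges over libraries overlapped. In Control C1qa (7.72 ± 1.37), C1qb (7.17 ± 0.618), C1qc (5.83 ± 0.304) and Tyrobp (5.56 ± 1.33) came first (FPKM, SD, n = 4). Laptm5 (2.40 ± 0.443), Cx3cr1 (1.34 ± 0.153) and Csf1r (0.634 ± 0.191) followed, each with a range apart from that of the gene before it. The ranges of Csf1r and Aif1 overlapped in Control. Aif1 (0.319 ± 0.180), P2ry12 (0.140 ± 0.0793) and Trem2 (0.0246 ± 0.0256) came last. C1qc and Tyrobp overlapped in all 3 groups, as did Aif1 and P2ry12. In Tra_TGF, Trem2 stood above P2ry12 in mean, with overlapping ranges. Genes with a mean of at least 0.5 FPKM over the 12 libraries were tested with limma (15016 genes), and 7 of the 10 passed. Aif1, P2ry12 and Trem2 did not pass and are given by their reads.

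**Figure D2:**
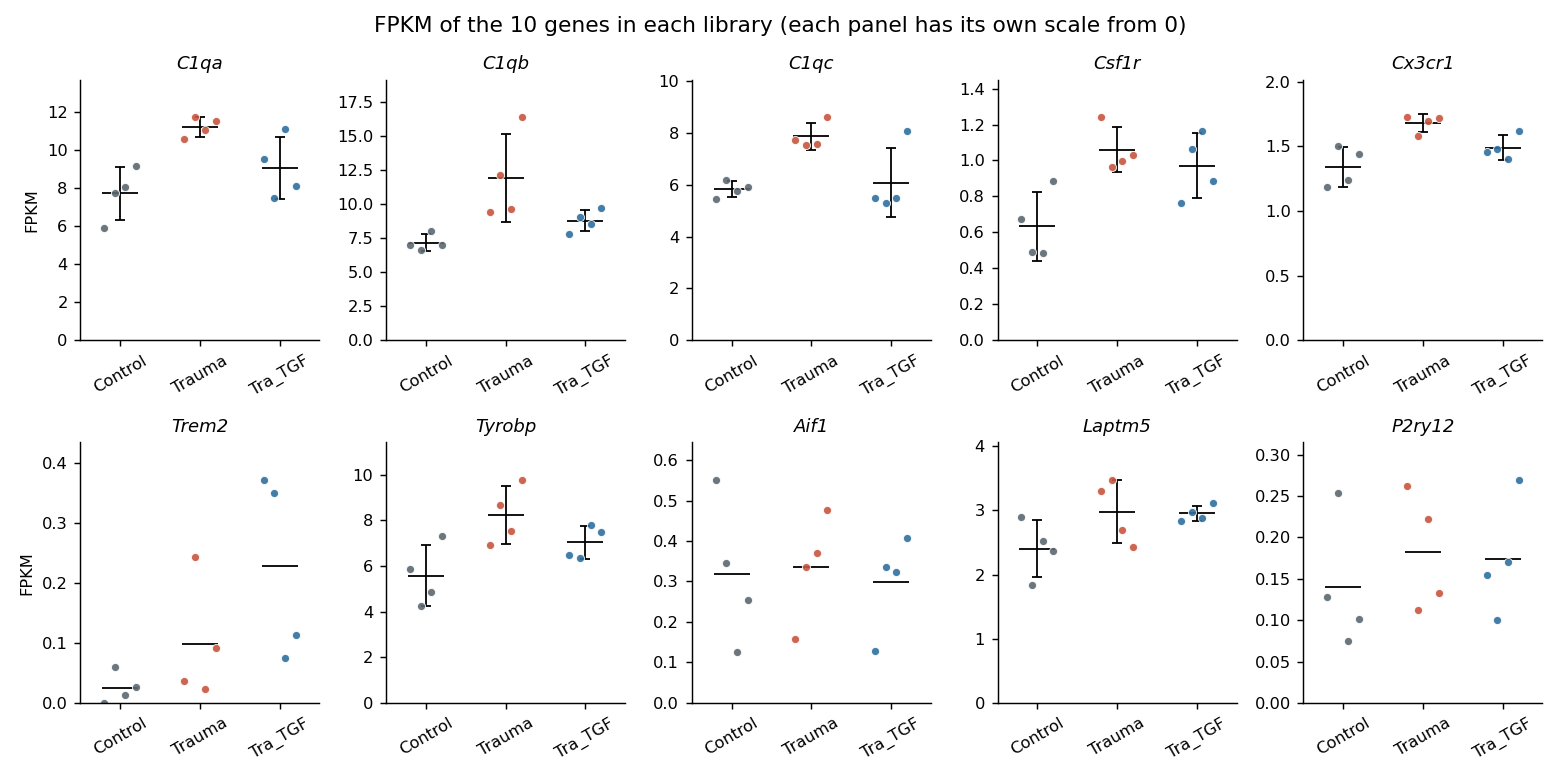
FPKM (vertical axis, from 0, a scale for each gene) of the 10 genes in the Control, Trauma and Tra_TGF libraries. Points are libraries, horizontal lines are means, and bars are the SD of 4 libraries, drawn for the 7 genes tested. For C1qa, C1qb, C1qc, Csf1r and Cx3cr1 the Trauma points lie above all Control points, and 1 Tra_TGF library has a high C1qc of 8.09 FPKM.

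The first comparison asked how the scratch changed the cultures after 24 h. C1qa, C1qb and Tyrobp rose in the Trauma group, by 1.45, 1.66 and 1.48 times in mean FPKM. C1qc, Csf1r, Cx3cr1 and Laptm5 had higher means too, but their adjusted p did not pass 0.05. Of the 7 genes tested, 3 were called higher and 0 lower, where 901 of the 15016 genes tested were called (6.00%), 496 higher (3.30%) and 405 lower (2.70%). The median log2 fold change of the 7 was 0.55, against -0.012 over all genes tested, and all 7 were above 0, as were 46.6% of all genes. The share of higher calls among all genes depended on the method, with 856 higher and 287 lower by voom on recovered reads and 487 higher and 762 lower after a correction for GC content. Voom is limma's method for counts, and it called 5 of the 7, with C1qc and Csf1r added.

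C1qa (ENSMUSG00000036887, chromosome 4 from 136895917 to 136898803) encodes the A chain of C1q. Its FPKM were 5.87, 7.75, 8.07 and 9.17 in Control replicates 1 to 4, 10.6, 11.7, 11.0 and 11.5 in Trauma, and 9.53, 7.46, 11.1 and 8.11 in Tra_TGF. All Trauma libraries were above all Control libraries, and Control replicate 1 was the lowest of the 12. The log2 fold change was 0.55 (SE 0.14, limma adjusted p = 0.0349). Leaving out a single library ended the call in 7 of 8 cases, among them Control replicate 1 (log2 fold change 0.43, limma adjusted p = 0.0597), and it held without Control replicate 4 alone.

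C1qb (ENSMUSG00000036905, chromosome 4 from 136880129 to 136886187), the B chain, had 6.99, 6.65, 8.07 and 6.98 FPKM in Control, 9.44, 12.2, 9.67 and 16.4 in Trauma and 7.84, 9.07, 8.58 and 9.70 in Tra_TGF. Each Trauma library exceeded each Control library, and the spread within Trauma came mainly from replicate 4. The log2 fold change was 0.69 (SE 0.15, limma adjusted p = 0.0173). It remained called without Control replicate 1 (0.68, limma adjusted p = 0.0372) and lost the call without Trauma replicate 2, in 1 of 8 cases (limma adjusted p = 0.0518), and in a fit of only the groups compared (limma adjusted p = 0.0578). Without Trauma replicate 4, the highest library, it was 0.53.

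C1qc (ENSMUSG00000036896, chromosome 4 from 136889804 to 136893065), the C chain, had 5.45, 6.18, 5.76 and 5.91 FPKM in Control, 7.74, 7.54, 7.56 and 8.62 in Trauma, and 5.47, 5.28, 5.50 and 8.09 in Tra_TGF. Trauma did not overlap with Control, whereas Tra_TGF replicate 4 lay among the Trauma values and the other 3 Tra_TGF libraries (5.28 to 5.50) below all Trauma libraries, 1 of them also below all Control libraries. For Trauma against Control the log2 fold change was 0.43 (SE 0.12, limma adjusted p = 0.0512). Of the summed FPKM of the 3 chains, C1qa made up 37.0% ± 3.90 in Control, 36.5% ± 3.41 in Trauma and 37.8% ± 6.06 in Tra_TGF (SD, n = 4 each). C1qc made up 28.2% ± 1.95, 25.5% ± 2.10 and 25.3% ± 4.08 in the same order. These ranges overlapped between all groups for each chain, so no shift in the proportions of the chains was seen beyond the spread.

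Tyrobp (ENSMUSG00000030579, chromosome 7 from 30413760 to 30417585), the ITAM adaptor through which Trem2 signals, had 5.85, 4.23, 4.86 and 7.29 FPKM in Control, 6.93, 8.68, 7.55 and 9.78 in Trauma and 6.50, 6.34, 7.78 and 7.49 in Tra_TGF. Trauma replicate 1 lay below Control replicate 4, so the groups overlapped. The log2 fold change for Trauma was 0.58 (SE 0.15, limma adjusted p = 0.0489), and the call was lost in 6 of 8 cases when a library was left out, holding without Control replicate 4 or Trauma replicate 1. Without Control replicate 1 the value was 0.61 (limma adjusted p = 0.0658).

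Csf1r (ENSMUSG00000024621, chromosome 18 from 61100598 to 61132149), the receptor for Csf1 and Il34, had 0.675, 0.489, 0.485 and 0.888 FPKM in Control, 1.24, 0.963, 0.999 and 1.03 in Trauma and 0.762, 1.07, 1.17 and 0.887 in Tra_TGF. Trauma was apart from Control, and the mean was 1.67 times higher, with a log2 fold change of 0.69 (SE 0.21, limma adjusted p = 0.0754). It passed by voom (0.82, adjusted p = 0.0126). Of its 5774 exon bases, 873 overlap exons of Hmgxb3 on the opposite strand, and because the strand setting of the counting is not given in the sources used here, reads of these genes cannot be told apart there.

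Cx3cr1 (ENSMUSG00000052336, chromosome 9 from 119901616 to 120069879), the fractalkine receptor, had 1.18, 1.50, 1.24 and 1.44 FPKM in Control, 1.73, 1.58, 1.69 and 1.72 in Trauma and 1.46, 1.48, 1.40 and 1.62 in Tra_TGF. The Trauma libraries were all above the Control libraries, with a log2 fold change of 0.31 (SE 0.10, limma adjusted p = 0.111). Laptm5 (ENSMUSG00000028581, chromosome 4 from 130913125 to 130936141), a lysosomal membrane protein of blood-derived cells that the study lists among lysosome genes called on these libraries, had 2.90, 1.83, 2.52 and 2.36 FPKM in Control, 3.31, 3.48, 2.70 and 2.43 in Trauma and 2.84, 2.98, 2.89 and 3.12 in Tra_TGF. Trauma and Control overlapped, and the log2 fold change was 0.30 (SE 0.14, limma adjusted p = 0.249). Laptm5 was thus not called here, by limma on FPKM. The study's list is headed as one of control and trauma, and its calls came from another test, DESeq2 on counts, at an adjusted p of at most 0.05. Without Control replicate 1 the log2 fold changes were 0.39 for C1qc (limma adjusted p = 0.102), 0.73 for Csf1r (0.0939), 0.26 for Cx3cr1 (0.201) and 0.40 for Laptm5 (0.124), and C1qb alone of the 7 was called. In all, 5 of the 7 genes tested had Trauma libraries that lay wholly above Control, as did 6.25% of all genes tested.

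**Figure D3:**
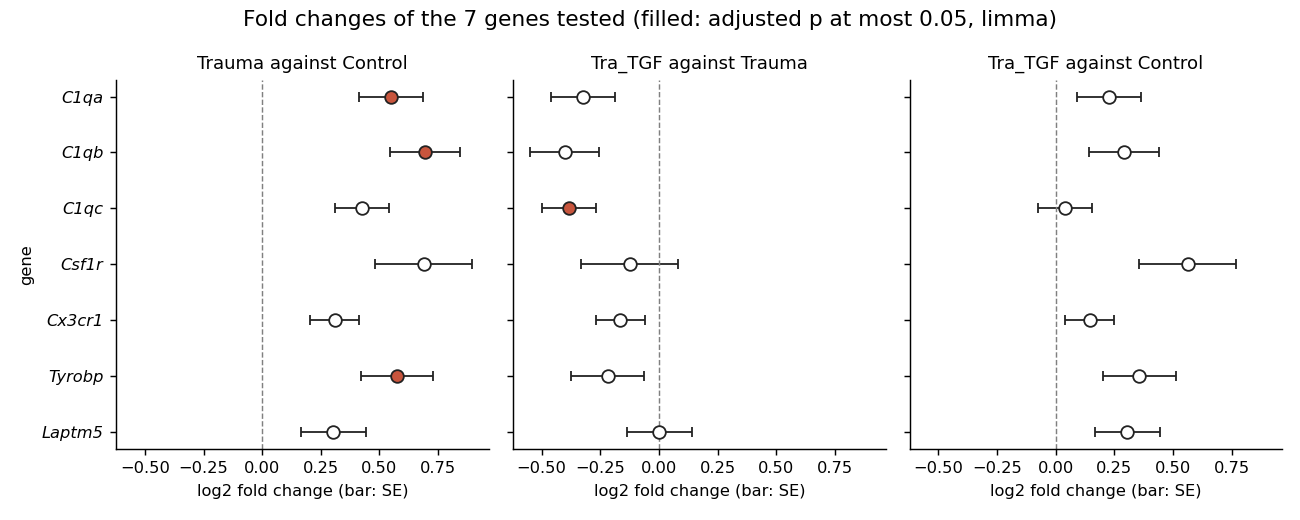
Log2 fold change (horizontal axis) with its standard error for the 7 genes tested (vertical axis) in the 3 comparisons, filled where the limma adjusted p was at most 0.05. C1qa (0.55), C1qb (0.69) and Tyrobp (0.58) are filled for Trauma against Control, C1qc (-0.39) for Tra_TGF against Trauma, and no gene for Tra_TGF against Control.

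The second comparison asked what TGF-β1 changed in scratched cultures. C1qc fell in Tra_TGF, to 0.774 times its Trauma mean, and was the 1 gene of the 7 called, where 1819 of 15016 genes tested were called (12.1%), 1158 lower (7.71%) and 661 higher (4.40%). With quantile normalization the split over all genes was 1125 higher and 927 lower. The other C1q chains had lower means without passing the test, at 0.807 times for C1qa and 0.738 times for C1qb. The median log2 fold change of the 7 genes was -0.22, against 0.0025 over all genes tested, and 1 of the 7 was above 0, as were 50.5% of all genes.

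The log2 fold change of C1qc was -0.39 (SE 0.12, limma adjusted p = 0.0492). The value was just inside the threshold, and the call was lost in 7 of 8 cases when a library was left out and after a correction for GC content (-0.24, limma adjusted p = 0.265). It held without Tra_TGF replicate 4 (-0.53). C1qb changed by -0.40 (SE 0.15, limma adjusted p = 0.0950) and C1qa by -0.32 (SE 0.14, limma adjusted p = 0.140) on the log2 scale. After the GC correction C1qa changed by -0.14 (limma adjusted p = 0.519), and the median of the 7 was -0.14. All 4 Tra_TGF libraries were below the Trauma mean for C1qa, C1qb, Cx3cr1 and Tyrobp, as were 3 of 4 for C1qc and Laptm5 and 2 of 4 for Csf1r. For Tyrobp (-0.22, limma adjusted p = 0.385), Cx3cr1 (-0.16, limma adjusted p = 0.327), Csf1r (-0.12, limma adjusted p = 0.740) and Laptm5 (0.0017, SE 0.14, limma adjusted p = 0.996) the difference did not pass. No gene of the 7 had Tra_TGF libraries wholly below or above Trauma, against 12.0% of all genes wholly below and 10.2% wholly above.

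The third comparison, of scratch with TGF-β1 against Control, gave no call among the 7 genes with limma, where 2487 of 15016 were called (16.6%), 922 higher (6.14%) and 1565 lower (10.4%). At an unadjusted p under 0.05 there were 3 of 7, where 31.1% of all genes tested were, and these were Csf1r (log2 fold change 0.56, SE 0.21, adjusted p = 0.0845), Tyrobp (0.36, SE 0.15, adjusted p = 0.139) and Laptm5 (0.30, SE 0.14, adjusted p = 0.156). Voom called 1, Csf1r (0.69, adjusted p = 0.0232). The C1q chains had log2 fold changes of 0.23 for C1qa (SE 0.14), 0.29 for C1qb (SE 0.15) and 0.04 for C1qc (SE 0.12), with limma adjusted p of 0.280, 0.204 and 0.848, and Cx3cr1 had 0.15 (SE 0.10, limma adjusted p = 0.375). Without Control replicate 1, 0 of the 7 were called, and the log2 fold changes were 0.11 for C1qa, 0.28 for C1qb, 0.0092 for C1qc, 0.60 for Csf1r, 0.091 for Cx3cr1, 0.39 for Tyrobp and 0.40 for Laptm5, with limma adjusted p of 0.0579 to 0.973. Over all genes the calls were 1134 higher and 918 lower with quantile normalization and 1661 higher and 1229 lower with voom. The median of the 7 was 0.29, against -0.0090 over all genes tested. All 7 were above 0, as were 48.5% of all genes, and 0 of the 7 had Tra_TGF libraries wholly above Control, against 7.94% of all genes. This comparison shares its libraries with the other two, so the values of the 3 comparisons are not independent.

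The 3 genes under the filter rested on few reads, and of these Trem2 alone had Tra_TGF libraries apart from Control. Trem2 (ENSMUSG00000023992, chromosome 17 from 48346401 to 48354147), the lipid-sensing receptor that pairs with Tyrobp, had 0, 5, 1 and 2 reads in Control replicates 1 to 4, 3, 21, 2 and 8 in Trauma and 28, 27, 6 and 9 in Tra_TGF. Every Tra_TGF library had more than every Control library, and 7.94% of the genes tested lay wholly above Control in this comparison. The exact permutation test on FPKM gave p = 0.0286 (two-sided, unadjusted, 70 assignments), the smallest that 4 against 4 libraries allow. This p was not adjusted for the number of exact tests run. Against Trauma, where replicate 2 overlapped with Tra_TGF, the exact permutation p was 0.20, and for Trauma against Control it was 0.171. The group means were 0.0246, 0.0985 and 0.228 FPKM in Control, Trauma and Tra_TGF, and replicates 1 and 2 of Tra_TGF held most of the reads of that group.

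Aif1 (ENSMUSG00000024397, chromosome 17 from 35170991 to 35176068), the cytoskeletal protein known as Iba1 that is used to stain microglia, had 13, 9, 3 and 6 reads in Control, 4, 9, 10 and 13 in Trauma and 3, 8, 8 and 10 in Tra_TGF. P2ry12 (ENSMUSG00000036353, chromosome 3 from 59216272 to 59262871), the nucleotide receptor of resting microglia, had 5, 11, 3 and 4 reads in Control, 11, 5, 10 and 6 in Trauma and 6, 4, 7 and 11 in Tra_TGF. All groups overlapped for both. The exact permutation p for Trauma against Control was 0.857 for Aif1 and 0.40 for P2ry12, and at 3 to 13 reads per library small differences were not detectable. Exact tests were run for 9 pairs of gene and comparison. P2ry12 shares 9 exon bases with Med12l on the opposite strand, and Cx3cr1 78 with Gm33858.

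**Figure D4:**
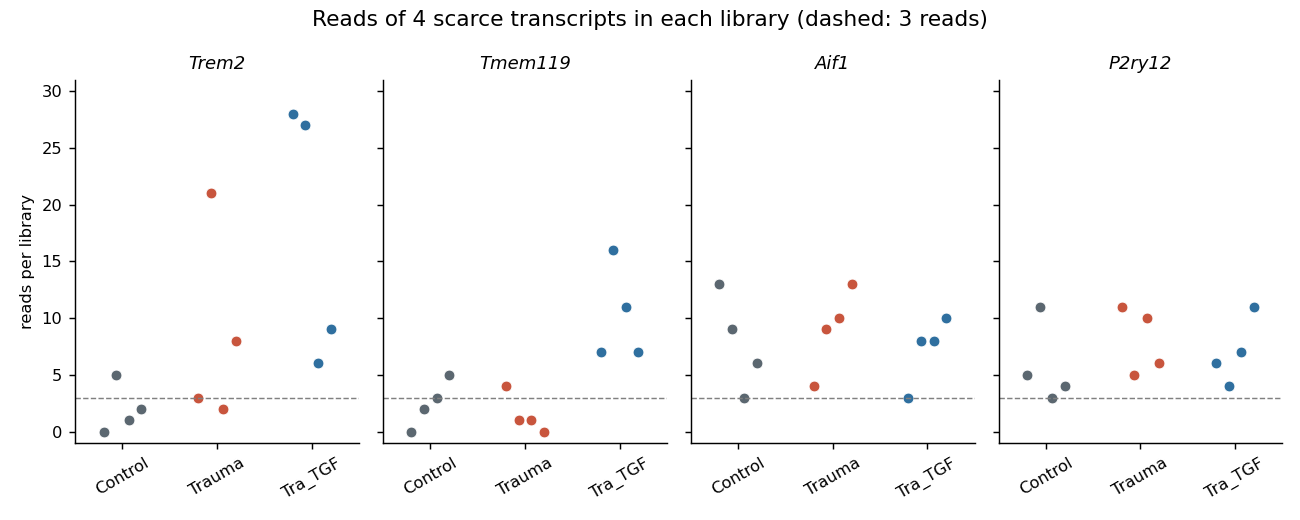
Reads per library (vertical axis) of Trem2, Tmem119, Aif1 and P2ry12 in the 3 groups, with a dashed line at 3 reads. Trem2 reached 28 and Tmem119 16 reads in Tra_TGF, while Aif1 and P2ry12 stayed between 3 and 13 reads in all groups.

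Markers of resting microglia outside the 10 genes differed in level, and Tmem119 and Siglech were scarce. Sall1 (4.71 ± 0.346 FPKM) and Fcrls (2.34 ± 0.155 FPKM) had higher means in Control than Cx3cr1 and Csf1r (SD, n = 4). In RNA of a whole culture these levels cannot be assigned to microglia. Tmem119, a surface protein of resident microglia named after its values were seen, had 0, 2, 3 and 5 reads in Control, 4, 1, 1 and 0 in Trauma and 7, 16, 11 and 7 in Tra_TGF. The Tra_TGF libraries were wholly above both other groups, as were 7.94% of the genes tested against Control and 10.2% against Trauma. Tmem119 was itself under the filter, and its reads are given as a description without a test. Siglech, another resident marker, was at 0 reads in all 12 libraries, which with a count of 3 as the limit allows up to 3 reads in each. Of the transcription factors of the lineage, Spi1 (PU.1) and Irf8 were low. Spi1 had 11 to 24 reads in Control, 21 to 31 in Trauma and 13 to 24 in Tra_TGF. Irf8 had 17 to 35, 27 to 64 and 18 to 38. Of 10 markers of border macrophages and monocytes, 4 had at most 3 reads in every library, among them Ccr2, Cd163 and Ly6c2, the last with 0 in all. Pf4 had 0 to 3 reads in Control, 3 to 5 in Trauma and 0 to 1 in Tra_TGF, and Mrc1 had 3 to 13, 9 to 22 and 1 to 5. Lyz2, the lysozyme of macrophages and the only one of the 10 to be tested, was 18.1 ± 0.289 FPKM in Control, 23.6 ± 2.46 in Trauma and 25.1 ± 2.90 in Tra_TGF (SD, n = 4), and rose against Control in both (log2 fold changes 0.38 and 0.47, limma adjusted p = 0.0197 and 0.00362). The call in Trauma was lost with the replicate block and with the gene length correction (limma adjusted p up to 0.0975), and that in Tra_TGF held under each alternative that kept all libraries.

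Of 40 further genes of microglia and myeloid cells, 16 passed the filter. In Trauma against Control 1 of them was called, higher, which is 1 of 16 where 6.00% of all genes were called, and the median log2 fold change of the 16 was 0.33, with 15 of 16 above 0 (46.6% of all genes were above 0). The gene called was Mpeg1, a pore-forming protein of phagocytes, at 5.36 ± 0.559 FPKM in Control and 6.75 ± 0.561 in Trauma (0.33, SE 0.08, limma adjusted p = 0.0255). Its call was lost with no filter, with only the groups compared and with the replicate block (limma adjusted p up to 0.0814). In Tra_TGF against Trauma 0 of 16 were called with limma (median -0.12), where 12.1% of all genes were, while voom called 1 lower, and quantile normalization and the gene length correction each called 1 higher. Genes of this list that were higher in Tra_TGF than in Control included the lysosomal protease Ctss (3.62 ± 0.611 to 5.81 ± 1.45 FPKM, 0.65, limma adjusted p = 0.0264) and the lysosomal glycoprotein Cd68 (6.69 ± 0.942 to 8.63 ± 0.806 FPKM, 0.37, limma adjusted p = 0.0321). None was called lower by limma, where 6.14% of all genes tested were called higher and 10.4% lower in this comparison. The calls of Ctss and Cd68 were both lost with no filter, that of Cd68 also with only the groups compared and that of Ctss with the GC correction and the block. Ctss had its highest mean in Tra_TGF, whereas the C1q chains had theirs in Trauma, as did Mpeg1 of the same list. For Tra_TGF against Trauma the difference of Ctss was not called (0.23, limma adjusted p = 0.421), nor were those of C1qa and C1qb.

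Genes of activated or disease-associated microglia moved in different directions between Trauma and Tra_TGF. Of 12 tested, 6 rose in Trauma against Control and 0 fell, where 6.00% of all genes were called, with a median log2 fold change of 0.46, and the count was 6 without Control replicate 1 as well. Against Trauma, Tra_TGF was lower for 3 and higher for 2, where 12.1% of all genes were called. Ccl3, a chemokine, went from 0.896 ± 0.242 FPKM in Control to 2.01 ± 0.244 in Trauma and 0.973 ± 0.166 in Tra_TGF, with log2 fold changes of 1.10 (limma adjusted p = 0.00439) and then -0.98 (limma adjusted p = 0.00981), on 8 to 30 reads. Lgals3, a galectin of phagocytes, took the same course, from 4.27 ± 0.631 to 7.37 ± 0.497 and 4.49 ± 0.878 FPKM (0.78 and -0.72, limma adjusted p = 0.00384 and 0.00849). Cd9, a tetraspanin, went up in both steps, from 9.43 ± 1.20 to 15.1 ± 1.31 and 23.8 ± 1.07 FPKM (0.68 and 0.65, limma adjusted p = 0.000752 and 0.00304). Gpnmb, a lysosomal glycoprotein, did so as well, from 5.26 ± 0.376 to 6.74 ± 0.415 and 9.73 ± 0.342 FPKM (0.35 and 0.53, limma adjusted p = 0.00583 and 0.0017). Several of these genes, Cd9 and the cathepsins among them, are also expressed by neurons and other glia. Spp1, osteopontin, was 13.6 ± 1.51, 17.7 ± 2.88 and 22.0 ± 1.75 FPKM in the 3 groups, and passed for Tra_TGF against Control (0.69, limma adjusted p = 0.00258).

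The ligands of the microglial receptors were measured in the same libraries. Csf1, a ligand of Csf1r, rose from 1.78 ± 0.250 FPKM in Control to 2.46 ± 0.220 in Trauma (0.45, SE 0.11, limma adjusted p = 0.0323) and was 2.61 ± 0.196 in Tra_TGF (0.53 against Control, limma adjusted p = 0.00733). Il34, its other ligand, had 3.06 ± 0.523, 2.67 ± 0.493 and 2.62 ± 0.730 FPKM, with limma adjusted p of at least 0.434 in the 3 comparisons. Cx3cl1, the fractalkine that neurons present to Cx3cr1, had 97.7 ± 3.36, 96.7 ± 1.62 and 95.8 ± 3.84 FPKM, with differences of at most 0.03 on the log2 scale (limma adjusted p of at least 0.640). Clu, a lipoprotein bound by Trem2, rose from 39.9 ± 1.66 FPKM in Control to 51.6 ± 3.29 in Trauma (0.37, limma adjusted p = 0.000811). It was 49.8 ± 1.03 FPKM in Tra_TGF (-0.05 against Trauma, limma adjusted p = 0.544). Apoe, another, had a mean of 344 ± 67.8 FPKM in Control and 436 ± 33.5 in Trauma, a difference that did not pass (0.36, limma adjusted p = 0.113). Apoe then fell to 289 ± 14.2 FPKM in Tra_TGF (-0.59 against Trauma, limma adjusted p = 0.0138). Smad2, a transducer of TGF-β signals, fell from 7.49 ± 0.50 to 6.00 ± 0.351 FPKM in Trauma (-0.31, limma adjusted p = 0.0214). In all, 2 of 10 tested ligands and signalling partners rose and 1 fell in Trauma, where 3.30% of all genes rose and 2.70% fell. With the replicate number as a block the counts were 1 and 0, and the calls of Csf1 and Smad2 in Trauma were lost. That of Csf1 was also lost with no filter, with quantile normalization, with only the groups compared and with the GC correction.

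Of 21 tested components, receptors, regulators and C1q-binding proteins of complement, 2 rose in Trauma and 0 fell, where 3.30% of all genes were called higher and 2.70% lower, with a median log2 fold change of 0.03. Both were neuronal pentraxins, secreted synaptic proteins that bind C1q. Nptx1 rose from 1.96 ± 0.228 to 4.11 ± 0.228 FPKM (1.04, SE 0.10, limma adjusted p = 0.000124) and Nptx2 from 2.05 ± 0.343 to 5.08 ± 0.168 FPKM (1.28, SE 0.12, limma adjusted p = 9.04e-05). The proteases that act with C1q were scarce, with C1ra at 1 to 14 and C1s1 at 2 to 12 reads per library, and C3 at 16 to 57. C1s1 had 2 to 4 reads in Control, 8 to 12 in Trauma and 3 to 6 in Tra_TGF. Its Trauma libraries were wholly above both other groups. Of all genes tested, 6.25% had Trauma wholly above Control and 12.0% had Tra_TGF wholly below Trauma. C1s1 was under the filter, and its reads are given without a test. C4b, the next component of the classical pathway, was 1.54 ± 0.0990 in Control, 1.73 ± 0.173 in Trauma and 2.53 ± 0.423 FPKM in Tra_TGF, and rose with TGF-β1 (0.51, SE 0.12, limma adjusted p = 0.0237). C5ar1, an anaphylatoxin receptor of myeloid cells, fell from 1.08 ± 0.141 in Trauma to 0.521 ± 0.202 FPKM in Tra_TGF (-0.99, SE 0.27, limma adjusted p = 0.0353), on 10 to 53 reads. C1qbp, a mitochondrial protein that binds C1q, fell from 27.1 ± 1.25 to 23.9 ± 0.846 FPKM (-0.18, limma adjusted p = 0.0449). The calls of C5ar1 and C1qbp were lost with no filter and with the gene length or GC correction, that of C1qbp in 8 of 14 alternatives, and that of C4b with no filter. Among 7 tested genes of the wider C1q domain family, which includes synaptic organizers and is not part of complement, 0 were called in Trauma with limma. In Tra_TGF against Control 1 of the 7, C1qtnf6, was called higher (0.47, limma adjusted p = 0.0255), where 6.14% of all genes tested were called higher. The call of C1qtnf6 was lost with no filter, with only the groups compared and with the replicate block.

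**Figure D5:**
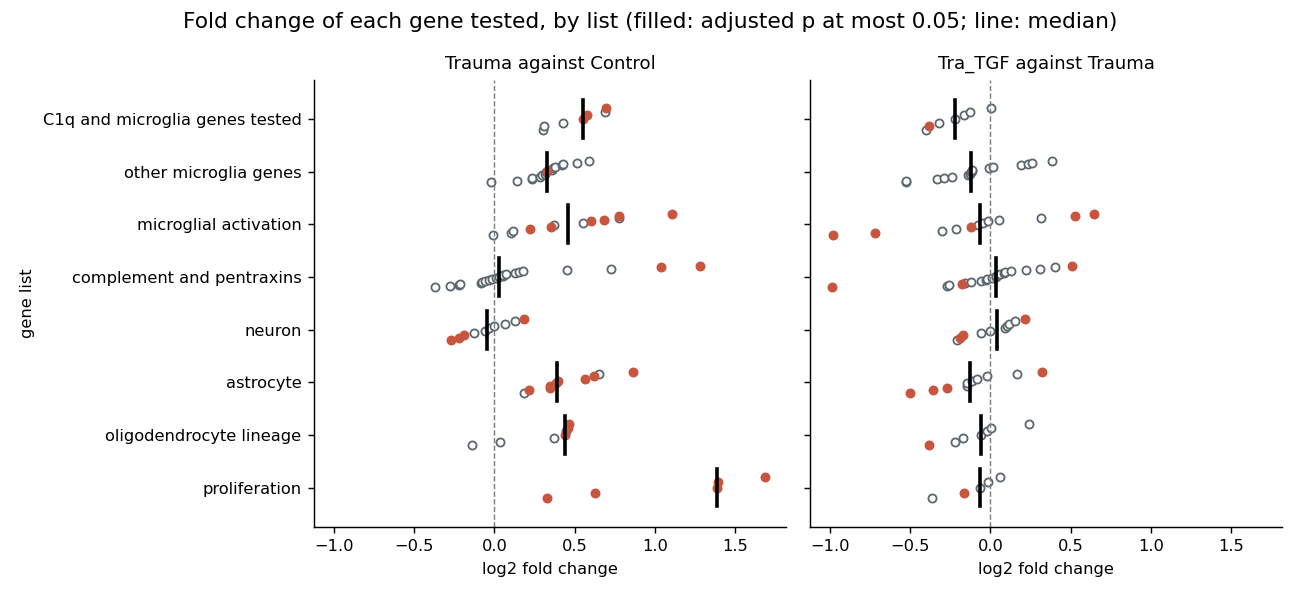
Log2 fold change (horizontal axis) of each gene tested, by list (vertical axis), for Trauma against Control and Tra_TGF against Trauma. Filled points passed a limma adjusted p of 0.05 and black lines are medians. In Trauma the medians were 0.55 for the C1q and microglial genes, 0.33 for other microglial genes, 0.39 for astrocyte genes and 0.03 for complement.

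Markers of other cells moved with the same comparison. Of 10 astrocyte genes tested, 8 rose in Trauma (median 0.39), with 6 without Control replicate 1, and their summed level was 218 to 247 FPKM in Control, 278 to 340 in Trauma and 292 to 313 in Tra_TGF. Gfap, the astrocyte filament, rose from 47.7 ± 4.10 to 87.3 ± 13.2 FPKM (0.86, limma adjusted p = 0.000336). Of 7 tested oligodendrocyte lineage genes 3 rose (median 0.44), and their list summed to 54.0 to 60.3 FPKM in Control, 69.7 to 77.2 in Trauma and 66.4 to 73.3 in Tra_TGF. All 5 tested genes of dividing cells rose (median 1.39), Mki67 from 0.251 ± 0.0405 to 0.820 ± 0.0658 FPKM (limma adjusted p = 0.00130), and their list summed to 18.0 to 19.5, 24.7 to 29.3 and 23.5 to 25.0 FPKM. Neuronal markers summed to 1675 to 1729 FPKM in Control, 1472 to 1576 in Trauma and 1438 to 1475 in Tra_TGF, with 3 of 10 called lower and 1 higher in Trauma. The 8 endothelial markers summed to at most 1.72 FPKM in any library, and the 8 of pericytes and fibroblasts to 3.32 to 5.28 FPKM. Of these lists 1 and 4 genes passed the filter and were tested, and 0 of them were called in Trauma by limma, with 6.00% of all genes called. The part of cell composition in the change of C1q was not tested.

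Across the 12 libraries, the tested genes outside the set whose levels ran most closely with the mean standardized level of the 7 were Arid5a (Pearson r = 0.94), Mcm3 (0.94), Map3k20 (0.92), Daam2 (0.92) and Cd151 (0.92). The points share the 3 groups and their depth, so the values are a description. Mcm3, a subunit of the replicative helicase, was 0.750 ± 0.164, 2.15 ± 0.383 and 1.39 ± 0.148 FPKM in Control, Trauma and Tra_TGF. Arid5a, which encodes an RNA-binding protein, was 0.312 ± 0.0360, 0.684 ± 0.118 and 0.526 ± 0.0678 FPKM, Daam2, a formin of the Wnt pathway, 5.00 ± 0.439, 8.38 ± 0.788 and 6.77 ± 0.307 FPKM, and Cd151, a tetraspanin, 7.49 ± 0.665, 11.1 ± 0.736 and 9.08 ± 0.523 FPKM. Map3k20, a stress-activated kinase, was 0.777 ± 0.0954, 1.06 ± 0.10 and 0.961 ± 0.0939 FPKM. All 5 had the order Control, Tra_TGF, Trauma that the sum of the 10 genes had. Their choice by closeness to the pattern of the 7 favours this order, so it is no separate result.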

How the data were processed

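RNA-seq libraries of mouse cortical neuron cultures (3 groups of 4) were compared. The authors aligned reads to mm10 with HISAT2 2.0.5, counted them per gene and deposited FPKM for 55901 genes, with gene length in base pairs (other). The annotation release is not given in the sources used here, and the coordinates and lengths of the 10 genes equal those of GENCODE M21. The methods speak of fewer samples than the 12 libraries. Reads were recovered as FPKM times gene length in steps of 1 read (tolerance 0.02, 100% of values whole). The deposited FPKM were already scaled to equal median-of-ratios, so the factors computed here were all 1.

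The values log2(FPKM + 0.1) of genes with a mean of at least 0.5 FPKM (15016) were compared in one limma fit of the 12 libraries (limma 3.58.1, R 4.3.3, eBayes with a mean-variance trend), with Benjamini-Hochberg adjustment and a threshold of 0.05. This scale understates changes of low genes. An exact permutation test (two-sided) on FPKM served for genes under the filter. Python 3.11.15, pandas 2.3.3, numpy 2.4.6, scipy 1.17.1 and matplotlib 3.10.9 were used, and the fits were tested on simulated data.

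The 10 genes and the lists were chosen with earlier results of these data known. Further genes named are Csf1, Il34, Cx3cl1, Spi1, Irf8, C1ra, C1s1, C3, C4b, up to 3 per list and comparison with the largest change past the threshold, and the 5 closest in pattern. Others were chosen after their values were seen. The result of 1 further gene of the lists is not reported here. Alternatives were the pseudocount, filter, scaling, samples in the fit, voom, eBayes without a trend, a replicate block, corrections for gene length and (added after the data were seen) GC content, and leaving out each library.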

Additional observations from a re-analysis of the deposited data

Results flagged for a closer look

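C1qc in the Tra_TGF group had 1 library far from the other 3. Replicate 4 had 8.09 FPKM, while the other 3 libraries had 5.28 to 5.50 FPKM, and the gap made up 0.919 of the range of the group, more than Dixon's test allows for 4 libraries. It was the 1 such case among 33 groups of values examined, where chance gives about 1 in 20. The same library was the highest of its group for C1qb (9.70 FPKM), and for C1qa (8.11 FPKM) it was not.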

How the results depend on the processing

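Over the alternatives, 397 of 459 fold changes of the 7 genes tested kept their direction and their side of the threshold, 42 lost and 13 gained the threshold, and 7 changed sign. Of 14 alternatives other than leaving out a library, 4 ended the call of C1qa, 1 that of C1qb and 7 that of Tyrobp in Trauma against Control, and 9 that of C1qc in Tra_TGF against Trauma. The genes called in Trauma against Control numbered 901, and 575 with no filter, 518 with only the groups compared and 1366 with the GC correction and the replicate block, and the members called numbered 3, and 1 with no filter and 5 with voom. For Tra_TGF against Trauma 1819 genes became 987 with no filter, 876 with the gene length correction and replicate block, 817 with the GC correction and 740 with that correction and the block. The 1 member called there became 0 with a pseudocount of 1, no filter, quantile normalization, only the groups compared, eBayes without a trend, and the gene length or GC correction with or without the block. For Tra_TGF against Control 2487 genes became 1601 with only the groups compared, and the 0 members called became 1 with voom or the GC correction. Leaving out each library gave 489 to 875, 651 to 1698 and 1488 to 3389 genes and 0 to 4, 0 to 1 and 0 to 2 members in the 3 comparisons. The ratio of the summed level ranged from 1.42 to 1.51, 0.826 to 0.876 and 1.21 to 1.28.

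Sign changes were those of Laptm5 in Tra_TGF against Trauma, close to 0 throughout (-0.0010 with a pseudocount of 1, -0.013 with quantile normalization and -0.088 to 0.079 with a library left out), and of C1qc in Tra_TGF against Control without Tra_TGF replicate 4 (-0.10 to 0.10 with a library left out). The cause of these changes was not tested. FPKM as deposited gave the same values, since they were already scaled. Libraries of the same replicate number had correlations of deviations of -0.0088 to 0.076 over genes. Libraries of unlike number were not compared in this way, so these values do not decide whether the numbers pair the libraries. With the number as a block 786, 1517 and 2267 genes and 3, 1 and 0 members were called. In that fit C1qa lost the threshold (limma adjusted p = 0.0556) and C1qc gained it (limma adjusted p = 0.0393) in Trauma against Control.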
